A study of Rattus norvegicus with 6 samples.

Results

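Matrix metalloproteinases (MMPs) are zinc enzymes that cut the proteins of the extracellular matrix (ECM), and the tissue inhibitors of metalloproteinases (TIMPs) bind and block them. The 8 genes described here are 5 MMPs (Mmp13, Mmp3, Mmp9, Mmp2 and Mmp14) and 3 TIMPs (Timp1, Timp2 and Timp3). They were chosen by gene symbol, and each had its own row among the 17143 genes of the table. All values are the fibroblasts' own transcripts. The enzymes used to remodel the matrix are proteins and were not measured.

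The cells were Rat-1 fibroblasts, an established rat line, grown in DMEM with serum. They were seeded at 25000 cells per well on ECM that had been remodelled by MMP1 (2 libraries), remodelled by MMP13 (2 libraries) or left native (2 libraries), and adherent cells were lysed 4 h later. The 6 libraries therefore share the line, the medium and the time and differ in the matrix. The comparisons bear on what these cells transcribe after meeting a matrix already cut by a collagenase. Libraries were made from the 3' ends of mRNA. Whether each pair came from separate cultures is not stated, so the p-values rest on differences between libraries that could be technical.

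MMPs are made as inactive proenzymes, and a propeptide holds the active site shut until it is removed. Mmp13 is the main secreted collagenase of rodents and cuts native fibrillar collagen. Mmp3, a stromelysin, cuts many non-collagen matrix proteins and activates other proMMPs. Mmp2 and Mmp9 are gelatinases, which digest unwound collagen and basement membrane collagen. Mmp14 is anchored in the cell membrane, cuts collagen at the cell surface and, in a complex with Timp2, activates proMMP2. Timp1 inhibits most secreted MMPs but Mmp14 poorly, Timp2 inhibits both kinds, and Timp3 is bound to the matrix. In fibroblasts many MMP genes are induced through the transcription factor AP-1, a dimer of Fos and Jun family proteins.

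The 250 bases before the annotated start are shown for the genes whose window held an AP-1 motif, since AP-1 subunit genes are among those described below. RefSeq promoter entries (assembly GRCr8, 250 bases before to 50 after the start) matched 5 of the 8 genes: Mmp13, Mmp3, Timp1, Timp2 and Timp3. The letters TGACTCA, searched on both strands, occurred once each in Mmp13 and Mmp3 and not in the other 3 windows, against 4.63% of all 33469 rat promoter windows. The capitals below mark that motif.
Mmp13 (chr8:12782579-12782828, plus strand): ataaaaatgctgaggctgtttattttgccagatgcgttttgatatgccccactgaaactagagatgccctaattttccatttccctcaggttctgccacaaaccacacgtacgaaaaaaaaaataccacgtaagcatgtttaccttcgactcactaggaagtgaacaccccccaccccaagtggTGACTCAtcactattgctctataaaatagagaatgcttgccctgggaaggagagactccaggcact
Mmp3 (chr8:12925031-12925280, plus strand): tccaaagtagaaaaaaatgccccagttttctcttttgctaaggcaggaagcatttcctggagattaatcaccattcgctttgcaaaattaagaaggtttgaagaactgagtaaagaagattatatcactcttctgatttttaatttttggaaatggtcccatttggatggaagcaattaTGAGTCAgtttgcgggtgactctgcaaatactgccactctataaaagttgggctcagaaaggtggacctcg
The motif ended 60 bases before the Mmp13 start and 65 bases before the Mmp3 start. Both windows also held the letters TATAAA once, which occurred in 14.2% of all windows. None of the 3 Timp windows held TATAAA, and each held the letters GGGCGG, once in Timp1, once in Timp2 and 3 times in Timp3, against 33.1% of all windows. These are matches of letters and not measured sites.

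Levels are given in units, meaning reads divided by the size factor of their library, as deposited. Whole reads could be recovered from them and totalled between 161817 and 362122 per library, so that 1 read was worth between 0.735 and 1.68 units. MMP13 replicate 2 was the shallowest library and MMP13 replicate 1 the deepest. Markers of the labelled cell type were present: all 12 fibroblast genes of the list had reads, and their sum took between 2.52% and 2.88% of reads in each library. These reads were uneven. Col1a1, Lgals1, Vim and S100a4 held the most, at 11841, 9172, 7519 and 5844 over all libraries. Pdgfra had 32, and Fap had 4, all in MMP1 replicate 2. A list of 14 leukocyte genes took between 0.00892% and 0.0195%, 5 tenocyte genes between 0.0117% and 0.0270%, 6 epithelial genes between 0.00267% and 0.00856%, and 7 endothelial genes between 2.88e-04% and 0.00364%. Rn45s, the entry of the ribosomal RNA precursor, took 0.661% and 0.936% of reads on MMP1-remodelled, 0.692% and 0.968% on MMP13-remodelled and 0.347% and 0.293% on native matrix. It thus moved with the matrix, as several results below do, and its part in them was not tested.

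The 8 transcripts together took between 0.238% and 0.301% of reads in a library. Genes with at least 5 units in at least 2 libraries were tested (7284 genes), which kept 7 of the 8. Mmp3 was left out. Folds are differences of log2(units + 1) from limma, adjusted by Benjamini-Hochberg over all tested genes, and a call is an adjusted p under 0.05. The fit took each gene's error from the trend over genes of like level and not from its own libraries. A gene that truly varies more than its peers thus gets too small an error, and one that varies less too large an error. With so few libraries a gene's own SD is itself uncertain. An exact permutation test of 2 libraries against 2 cannot give a two-sided p under 0.333.

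**Figure D1:**
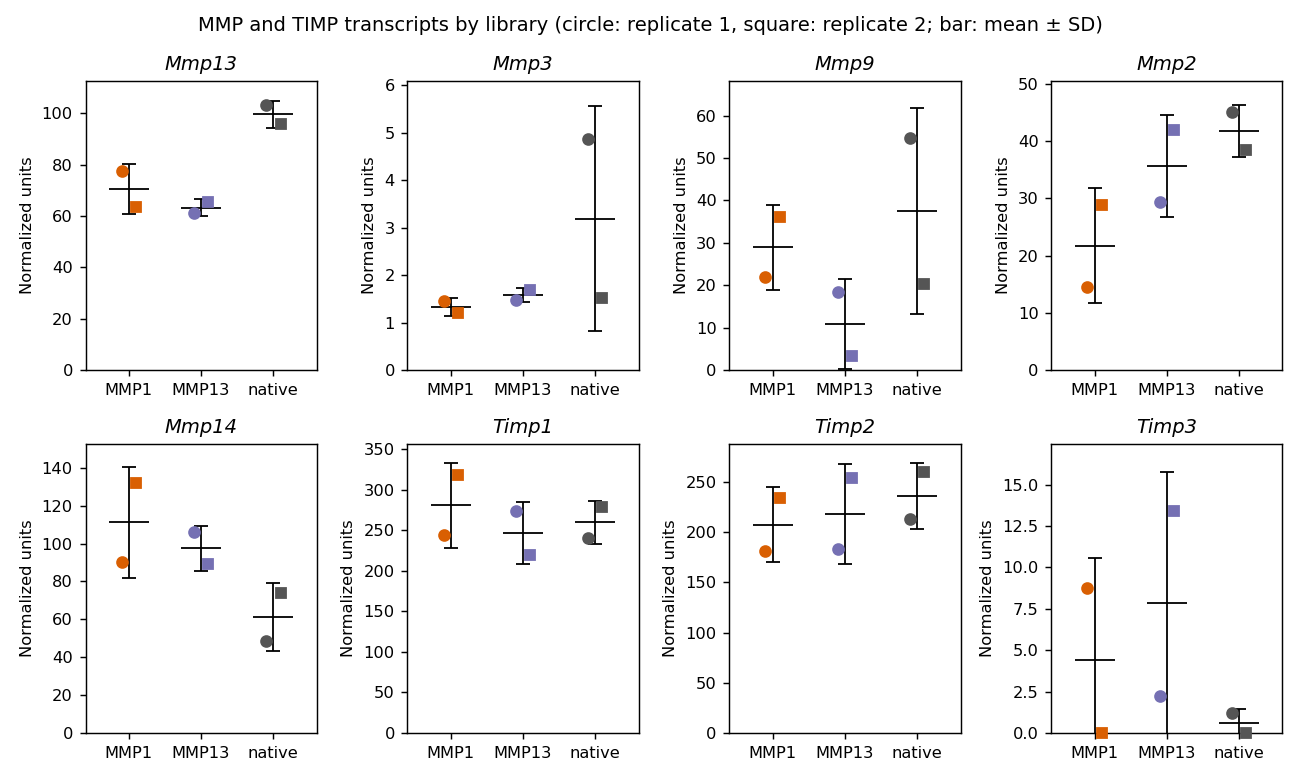
Normalized units (vertical axes, linear) of the 8 transcripts in each library on MMP1-remodelled, MMP13-remodelled and native matrix, with circles for replicate 1, squares for replicate 2 and bars for mean ± SD (n = 2), cut at 0 for Timp3. Mmp13 lies lower and Mmp14 higher in all 4 libraries on remodelled matrix than in both native libraries, while Mmp9 is lowest in MMP13 replicate 2, at 3.36 units.

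The cells' own collagenase transcript had lower values on both remodelled matrices and did not pass the test. In bulk RNA, fewer cells that express a gene and less of its RNA per cell cannot be told apart. Mmp13 stood at 77.4 and 63.6 units on MMP1-remodelled and at 61.0 and 65.5 units on MMP13-remodelled matrix, against 103 and 95.8 units on native matrix. All 4 libraries on remodelled matrix lay below both native ones, as they did in 8.7% of all tested genes. Those of the 2 remodelled matrices overlapped each other. The log2 fold was -0.50 on MMP1-remodelled matrix (SE 0.28, limma adjusted p = 0.65) and -0.65 on MMP13-remodelled matrix (adjusted p = 0.47). With both remodelled matrices averaged it was -0.57 (95% interval -1.04 to -0.10, limma adjusted p = 0.39). The replicates of Mmp13 were close together. Their within-group SD was 0.13 on the log2 scale, and 10.5% of the 200 genes nearest in level had a smaller one.

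Mmp13 heads a cluster of MMP genes that neighbour each other in the assembly GRCr8, and the table holds 9 of these. In order from Mmp13 they are Mmp12, Mmp3, Mmp1, Mmp10, Mmp8, Mmp27, Mmp20 and Mmp7. Mmp13 held 440 of the 469 reads counted over this cluster in the 6 libraries. Of the others, 7 had 6 reads or fewer in total, and Mmp7 and Mmp8 had none.

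Mmp3, whose promoter window carries the same motif, was close to the limit of detection. It had 1 and 1 reads on MMP1-remodelled, 2 and 1 on MMP13-remodelled and 4 and 2 on native matrix. Summed over the libraries of a group, the ratio to native was 0.472 on MMP1-remodelled matrix (95% exact interval 0.0466 to 2.64) and 0.549 on MMP13-remodelled matrix (0.0889 to 2.57). Both intervals hold 1, so no difference was detectable at this depth. Such intervals cover counting error only.

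Mmp9 was the one member that passed, as lower on MMP13-remodelled than on native matrix. It had 21.9 and 36.0 units on MMP1-remodelled matrix, 18.4 and 3.36 units on MMP13-remodelled matrix, and 54.7 and 20.4 units on native matrix. Both MMP13 libraries lay below both native ones, but MMP13 replicate 1 and native replicate 2 were close, at 18.4 and 20.4 units. Against native, the log2 fold on MMP13-remodelled matrix was -1.91 (SE 0.48, limma adjusted p = 0.030). Of all tested genes, 0.137% were called lower in this comparison. The value of MMP13 replicate 2 rests on 2 reads, for which the 95% exact Poisson interval is 0.407 to 12.1 units. This library is the shallowest, and 3 reads in it are worth 5.04 units.

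The replicates of Mmp9 scattered more than those of its peers. Its within-group SD was 1.08 on the log2 scale against a median of 0.45 in the 200 genes nearest in level, and 99.5% of these had a smaller SD. Its error in the fit does not reflect this scatter and may be too small. Without MMP13 replicate 2 the log2 fold was -0.83 (limma adjusted p = 0.996), and without native replicate 1 it was -1.22 (adjusted p = 0.999). The adjusted p was 0.066 and 0.082 without MMP1 replicates 1 and 2, and 0.109 by edgeR on the recovered reads. Leaving out MMP13 replicate 1 gave the largest log2 fold, -2.98.

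No other comparison of Mmp9 passed. Against native, MMP1-remodelled matrix gave a log2 fold of -0.24 (95% interval -1.19 to 0.70), and its libraries overlapped the native ones. With both remodelled matrices averaged the log2 fold was -1.08 (95% interval -1.90 to -0.26, limma adjusted p = 0.34), and the libraries overlapped too. MMP1-remodelled against MMP13-remodelled matrix gave a log2 fold of 1.66 (limma adjusted p = 0.35), with both MMP1 libraries above both MMP13 ones. This last contrast is the test of whether the remodelled matrices differ, and it passed only without MMP13 replicate 1 (log2 fold 2.74, adjusted p = 0.0040). Mmp9 is also made by leukocytes, whose listed genes took 0.0166% and 0.0136% of reads on MMP13-remodelled and 0.0132% and 0.00892% on native matrix. Of these 14 genes 10 had reads. Csf1r and Cd14 held most of them, with 86 and 84 reads, and were detected in every library, while Tyrobp, Laptm5, S100a8 and Cd79b had 0 reads in every library. Csf1r had 18.4 and 13.4 units on MMP13-remodelled and 15.8 and 6.79 units on native matrix, and Cd14 had 19.9 and 10.1 units on MMP13-remodelled and 10.9 and 11.3 units on native matrix. The part of leukocyte RNA in the Mmp9 result was not tested.

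**Figure D2:**
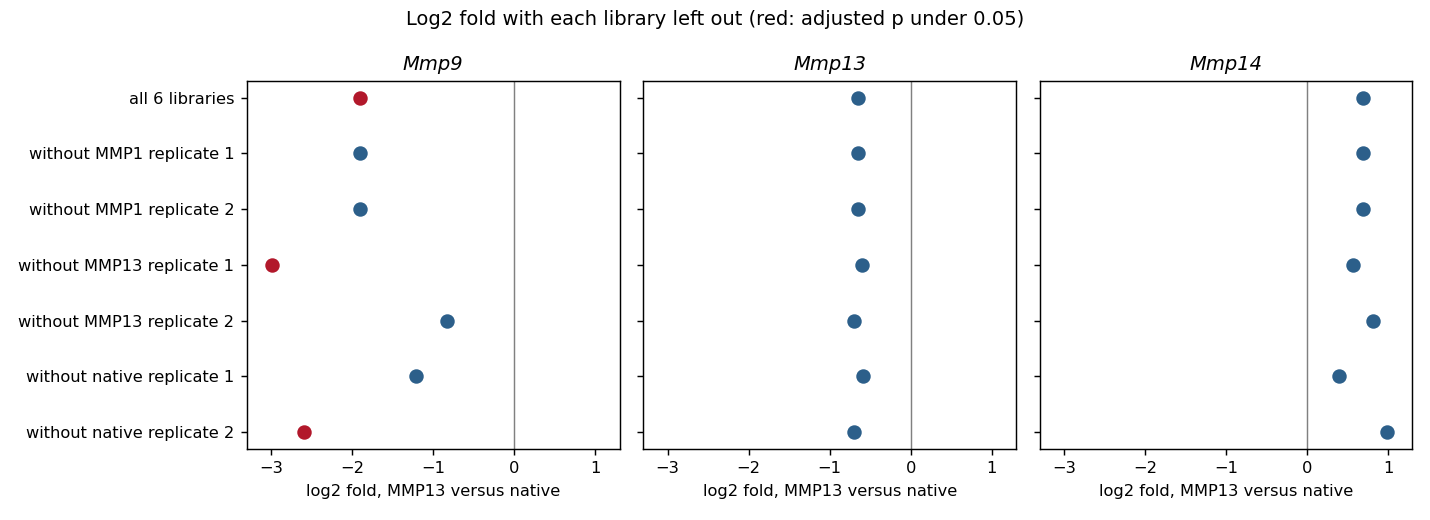
Log2 fold of Mmp9, Mmp13 and Mmp14 on MMP13-remodelled against native matrix (horizontal axes) with all 6 libraries and with each left out in turn, red where the limma adjusted p was under 0.05. The fold of Mmp9 runs from -2.98 to -0.83, while that of Mmp13 stays between -0.70 and -0.59.

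The other gelatinase, Mmp2, had its lowest mean on MMP1-remodelled matrix and was not called. Its values were 14.6 and 28.8 units on MMP1-remodelled, 29.4 and 42.0 units on MMP13-remodelled and 45.0 and 38.5 units on native matrix. Both MMP1 libraries were below both native ones and below both MMP13 ones, and the MMP13 and native libraries overlapped. The log2 fold against native was -0.98 on MMP1-remodelled matrix (SE 0.40, limma adjusted p = 0.41) and -0.24 on MMP13-remodelled matrix (95% interval -1.02 to 0.55). MMP1-remodelled against MMP13-remodelled matrix gave -0.75 (95% interval -1.53 to 0.037). None of the 3 passed, and in the first the log2 fold lay between -1.45 and -0.52 when single libraries were left out.

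Mmp14, the membrane-anchored collagenase, had higher values on both remodelled matrices and did not pass the test. It stood at 90.5 and 132 units on MMP1-remodelled and at 106 and 89.0 units on MMP13-remodelled matrix, against 48.6 and 74.0 units on native matrix. All 4 libraries on remodelled matrix lay above both native ones, as they did in 8.91% of all tested genes. The log2 fold was 0.86 on MMP1-remodelled matrix (SE 0.26, limma adjusted p = 0.16) and 0.69 on MMP13-remodelled matrix (adjusted p = 0.36). Averaged over both it was 0.77, or 1.71-fold (95% interval 1.25 to 2.32), with an adjusted p of 0.088 by limma, 0.070 by edgeR and 0.099 by DESeq2. The replicates of Mmp14 scattered more than the median gene of like level, with a within-group SD of 0.34 against 0.22 on the log2 scale, and 87% of the 200 genes nearest in level had a smaller one. The interval from the fit does not reflect this scatter and may be too narrow. Leaving out each library in turn gave averaged log2 folds between 0.47 and 1.07, and no adjusted p under 0.0625. The remodelled matrices did not differ detectably from each other (log2 fold 0.17, 95% interval -0.34 to 0.68).

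The inhibitor transcripts Timp1 and Timp2 did not pass in any comparison. Timp1 had 244 and 318 units on MMP1-remodelled, 274 and 220 units on MMP13-remodelled and 241 and 278 units on native matrix. Timp2 had 181 and 234 units on MMP1-remodelled, 183 and 254 units on MMP13-remodelled and 213 and 260 units on native matrix. For both genes the libraries of all 3 matrices overlapped. The fold of Timp1 against native was 1.08 on MMP1-remodelled matrix (95% interval 0.853 to 1.36) and 0.948 on MMP13-remodelled matrix (0.751 to 1.20). That of Timp2 was 0.877 (0.684 to 1.12) on MMP1-remodelled and 0.917 (0.716 to 1.18) on MMP13-remodelled matrix. These intervals take their width from the trend, and the replicates of both genes scattered more than the median gene of like level, with a within-group SD of 0.22 against 0.16 for Timp1 and of 0.27 against 0.16 for Timp2. The sign of the Timp1 fold changed with a library left out on either matrix, and that of Timp2 on MMP13-remodelled matrix.

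Timp3 had too few reads for a firm comparison. It held 6 and 0 reads on MMP1-remodelled, 3 and 8 on MMP13-remodelled and 1 and 0 on native matrix. Summed over a group, the ratio to native was 8.49 on MMP1-remodelled matrix (95% exact interval 1.03 to 391) and 12.1 on MMP13-remodelled matrix (1.76 to 520), from a single native read. Timp3 passed the filter only through libraries on remodelled matrix, where it is high, so these ratios are a description. In the gene test, whose fold depends on the pseudocount at this level, Timp3 did not pass on MMP1-remodelled (limma adjusted p = 0.89) or MMP13-remodelled matrix (adjusted p = 0.73). Its 2 libraries differed widely within each remodelled group. Taking 3 reads as the limit that a count of 0 allows, Timp3 could still reach 3.60 units in MMP1 replicate 2 and 2.26 units in native replicate 2.

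In the assembly GRCr8, Timp1 overlaps the synapsin gene Syn1, and Timp3 overlaps Syn3. Syn1 had 25 reads over the 6 libraries against 1502 for Timp1, and Syn3 had 2 against 18 for Timp3. Whether the counting used strand is not given in the sources used here, so reads of such overlapping genes cannot be told apart. Timp2 overlaps Cep295nl, which had no row under that symbol, so its reads could not be examined. None of the 5 MMPs overlaps another gene in that table.

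**Figure D3:**
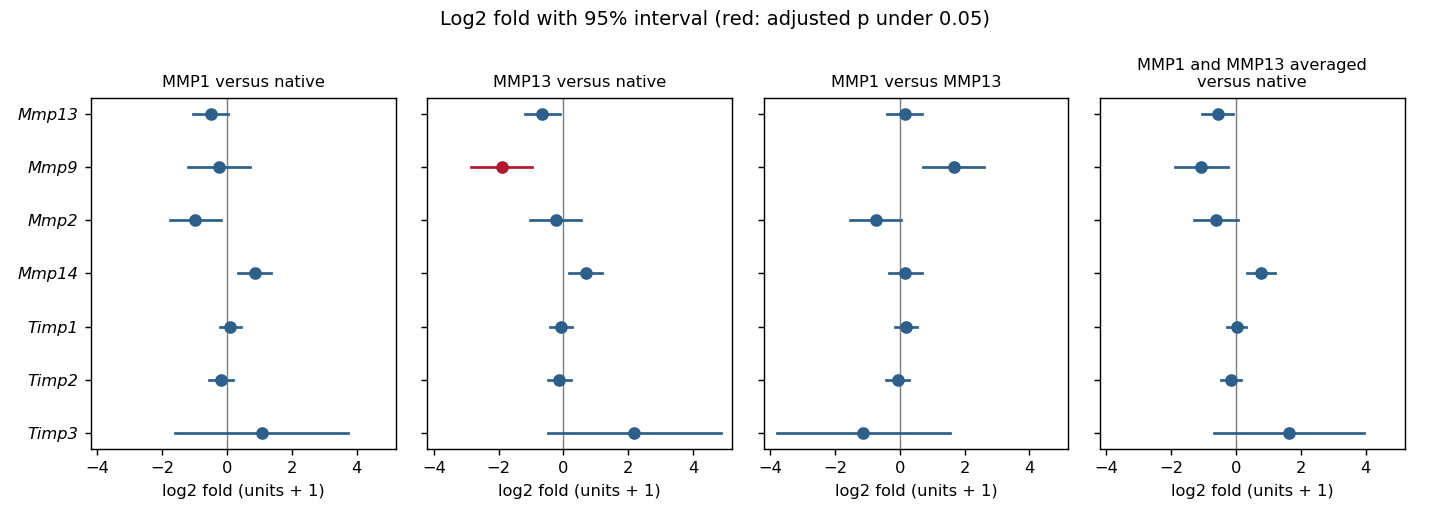
Log2 folds (horizontal axes, on the log2(units + 1) scale) with 95% intervals from limma for the 7 tested members in the 4 comparisons, red where the adjusted p was under 0.05. Mmp9 on MMP13-remodelled against native matrix is the red point, at -1.91, and Timp3 has the widest intervals.

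Counted over the 7 tested members, limma called 0 on MMP1-remodelled against native matrix, 1 (Mmp9, lower) on MMP13-remodelled against native, 0 in MMP1 against MMP13 and 0 with the remodelled matrices averaged. At an unadjusted p under 0.05 these counts were 2, 3, 1 and 3, where 8.24%, 8.05%, 5.22% and 9.14% of all tested genes passed that threshold. EdgeR, which tested 6 members and not Timp3 or Mmp3, called 0 in each comparison. DESeq2 also called 0, but on MMP13-remodelled against native matrix and in the averaged comparison it gave an adjusted p to 4 members, Mmp13, Mmp14, Timp1 and Timp2, and none to Mmp9, Mmp2, Mmp3 or Timp3. Over all tested genes, limma called 0.151% on MMP1-remodelled matrix (0.137% higher and 0.0137% lower), 0.412% on MMP13-remodelled matrix (0.275% higher and 0.137% lower), 0.0412% in MMP1 against MMP13, all of them lower, and 0.645% in the averaged comparison (0.522% higher and 0.124% lower). Over the genes each tool adjusted, edgeR called 0.219%, 0.7%, 0.0437% and 1.16% in the 4 comparisons, and DESeq2 called 0.00679%, 4.07%, 0.00679% and 5.7%. The median log2 fold of the members was -0.19 on MMP1-remodelled and -0.12 on MMP13-remodelled matrix, against 0.016 and 0.0088 over all tested genes.

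Non-overlap between libraries is common with 2 per group. All 4 libraries on remodelled matrix were above both native ones in 8.91% of tested genes and below both in 8.7%. Of the 7 tested members, 1 was in the first set (Mmp14) and 1 in the second (Mmp13). On MMP1-remodelled matrix alone, 1 member lay above both native libraries and 2 below, against 19.6% and 18.8% of tested genes. On MMP13-remodelled matrix alone, 2 lay above and 2 below, against 18.9% and 18.6%. In MMP1 against MMP13, 1 lay above and 1 below, against 15.4% and 15.9%. With so few members these counts are not set apart from the background. The comparisons with native share the native libraries, so a member's like direction on both matrices is not independent.

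Ratios of reads within a library do not depend on scaling. Summed over members, MMP reads stood to TIMP reads as 0.475 and 0.474 on MMP1-remodelled, 0.471 and 0.414 on MMP13-remodelled and 0.564 and 0.428 on native matrix. The group means were 0.474 ± 0.00059, 0.442 ± 0.041 and 0.496 ± 0.096 (SD, n = 2 each), so the matrices differed by less than the spread of the native pair. Ratios between single members were mixed. Mmp2 over Timp2 was 0.161 and 0.166 on MMP13-remodelled and 0.211 and 0.148 on native matrix, which overlap. On MMP1-remodelled matrix it was 0.0806 and 0.123, below all other libraries. Timp2 over Timp1 was 0.669 and 1.15 on MMP13-remodelled and 0.884 and 0.932 on native matrix, which overlap too. On MMP1-remodelled matrix it was 0.743 and 0.736, below both native libraries. Ratios with Mmp14 or Mmp13 separated native from both remodelled matrices, as the levels of these genes did. How often ratios of other genes do so was not counted. Mmp14 reads stood to Mmp13 reads as 1.17 and 2.08 on MMP1-remodelled and 1.73 and 1.36 on MMP13-remodelled matrix, against 0.471 and 0.772 on native matrix. Both native libraries lay below all others, and the same held for Mmp14 over Timp2, at 0.50 and 0.564 on MMP1-remodelled and 0.578 and 0.351 on MMP13-remodelled, against 0.229 and 0.285 on native matrix. Mmp13 over Timp1 ran the other way, at 0.317 and 0.200 on MMP1-remodelled and 0.223 and 0.298 on MMP13-remodelled, against 0.429 and 0.344 on native matrix. The Mmp14 ratios were chosen after their values were seen and carry no test. Mmp2 over Timp2 and Timp2 over Timp1 were not among the planned ratios either, and carry no test.

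**Figure D4:**
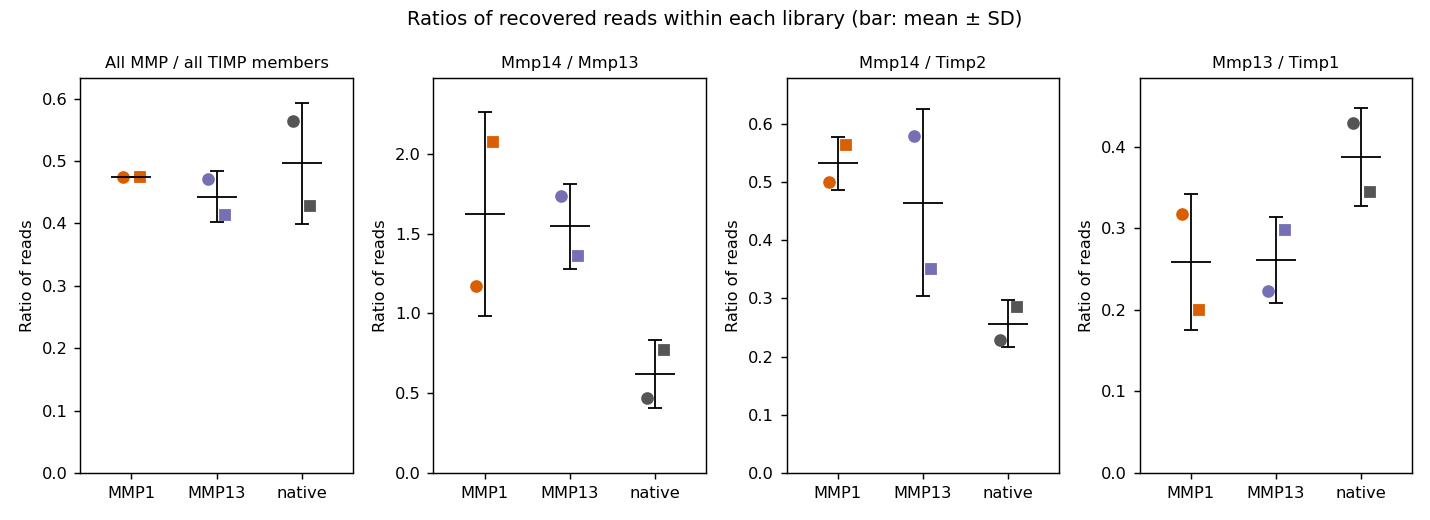
Ratios of recovered reads within each library (vertical axes, linear) for all MMP over all TIMP members, Mmp14 over Mmp13, Mmp14 over Timp2 and Mmp13 over Timp1, with bars for mean ± SD (n = 2). The summed ratio overlaps between matrices, while Mmp14 over Mmp13 is between 1.17 and 2.08 on remodelled matrix against 0.471 and 0.772 on native matrix.

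Other genes of matrix proteolysis and its control were read from 8 lists of 98 genes, of which 51 were tested. On MMP1-remodelled matrix limma called 0 of the 51. At an unadjusted p under 0.05 there were 15 of 51, where 8.24% of all tested genes passed, and edgeR and DESeq2 each called 0. On MMP13-remodelled matrix it called 1, Junb, as higher, and edgeR and DESeq2 each called 1. There were 11 at an unadjusted p under 0.05, where 8.05% of all tested genes passed. In MMP1 against MMP13 limma, edgeR and DESeq2 each called 0, with 4 at an unadjusted p under 0.05 against 5.22% of all tested genes. With the remodelled matrices averaged limma again called Junb alone, edgeR called 1 and DESeq2 called 2, Junb and Bsg. There were 15 at an unadjusted p under 0.05, where 9.14% of all tested genes passed.

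Of 18 other MMP genes, 2 were tested and none passed. Mmp19, a secreted MMP, had 26.3 and 16.8 units on MMP1-remodelled, 9.56 and 8.40 on MMP13-remodelled and 17.0 and 16.6 on native matrix. MMP1 against MMP13 gave it a log2 fold of 1.15 (limma adjusted p = 0.91). Mmp11, another stromelysin, had 9 reads on MMP1-remodelled, 9 on MMP13-remodelled and 3 on native matrix, a ratio to native of 4.25 (95% exact interval 1.06 to 24.4) on MMP1-remodelled and 3.30 (0.822 to 18.9) on MMP13-remodelled matrix. It passed the filter only through libraries on remodelled matrix, where it is high, so these ratios are a description. The gene test gave it an adjusted p of 0.63 with the remodelled matrices averaged (limma). Of 8 further genes listed as inhibitors or their relatives, 2 were tested and none passed. Serpinf1, a serpin of the matrix, had 21.9 and 33.6 units on MMP1-remodelled, 27.9 and 20.2 on MMP13-remodelled and 14.6 and 18.9 on native matrix (limma adjusted p = 0.74 for MMP1). The cathepsin inhibitor Cst3 had 260 and 295 units on MMP1-remodelled, 253 and 223 on MMP13-remodelled and 281 and 252 on native matrix, with a log2 fold of 0.22 in MMP1 against MMP13.

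The plasminogen system produces plasmin, which activates several proMMPs, and 6 of its 10 listed genes were tested. None passed, and the median log2 fold was 0.31 on MMP1-remodelled and 0.26 on MMP13-remodelled matrix. Serpine2, an inhibitor of plasminogen activators and thrombin, had 140 and 90.0 units on MMP1-remodelled, 97.1 and 85.6 on MMP13-remodelled and 49.8 and 83.0 on native matrix. Its log2 fold on MMP1-remodelled matrix was 0.79 (SE 0.26, limma adjusted p = 0.22). Anxa2, a cell surface receptor for plasminogen and its activator, had 384 and 403 units on MMP1-remodelled, 418 and 385 on MMP13-remodelled and 274 and 334 on native matrix. With the remodelled matrices averaged its log2 fold was 0.39 (limma adjusted p = 0.18).

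Among proprotein convertases and inducers of MMPs, 6 of 8 listed genes were tested and limma called none in any of the 4 comparisons. The median log2 fold was -0.40 on MMP1-remodelled and -0.36 on MMP13-remodelled matrix. Bsg (basigin), a surface glycoprotein that induces MMPs in fibroblasts, had 637 and 622 units on MMP1-remodelled, 588 and 626 on MMP13-remodelled and 762 and 795 on native matrix. With the remodelled matrices averaged its log2 fold was -0.33 (SE 0.11), with an adjusted p of 0.14 by limma, 0.105 by edgeR and 0.044 by DESeq2. Pcsk6, a convertase that cleaves secreted proproteins, had 14.6 and 12.0 units on MMP1-remodelled, 27.9 and 26.9 on MMP13-remodelled and 40.1 and 34.0 on native matrix. The log2 fold on MMP1-remodelled matrix was -1.41 (SE 0.45, limma adjusted p = 0.18). The 3 groups did not overlap, but Pcsk6 was named for its small p, which favours such separation. The share of tested genes with 3 separate groups was not counted.

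The ADAM and ADAMTS genes encode related metalloproteinases, and 8 of 18 listed were tested, with none passing. Adamts12 had 1 read on MMP1-remodelled and 5 on MMP13-remodelled against 28 on native matrix, a ratio to native of 0.0505 (95% exact interval 0.0012 to 0.306) and of 0.196 (0.0591 to 0.515). It passed the filter only through the native libraries, where it is high, so these ratios are a description, and their intervals cover counting error only. In the gene test it had an adjusted p of 0.38 with the remodelled matrices averaged. Adam10, a membrane sheddase, had 14.6 and 14.4 units on MMP1-remodelled, 6.62 and 1.68 on MMP13-remodelled and 10.9 and 3.02 on native matrix. Of 12 cathepsin genes, which encode lysosomal proteases, 7 were tested and none passed. Ctsl had 628 and 635 units on MMP1-remodelled, 561 and 534 on MMP13-remodelled and 733 and 715 on native matrix. Its log2 fold on MMP13-remodelled matrix was -0.40 (SE 0.12, limma adjusted p = 0.14). Its groups did not overlap, but Ctsl too was named for its small p. Ctsa had 92.0 and 69.6 units on MMP1-remodelled, 85.3 and 72.2 on MMP13-remodelled and 118 and 112 on native matrix.

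Of the genes for matrix clearance and collagen sensing, 6 of 9 listed were tested and none passed. Cav1, the coat protein of caveolae, had 83.2 and 61.2 units on MMP1-remodelled, 55.9 and 68.8 on MMP13-remodelled and 113 and 102 on native matrix. With the remodelled matrices averaged its log2 fold was -0.68 (SE 0.24), with an adjusted p of 0.21 by limma and 0.105 by edgeR. Itga11, the alpha chain of a collagen-binding integrin, had 3 reads on MMP1-remodelled, 25 on MMP13-remodelled and 21 on native matrix. Its ratio of MMP1-remodelled to MMP13-remodelled matrix was 0.155 (95% exact interval 0.0299 to 0.507), and the gene test gave an adjusted p of 0.80 (limma). It passed the filter only through MMP13 and native libraries, so this ratio is a description.

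Of 15 AP-1, ETS and related regulators, 14 were tested. Junb, a Jun family subunit of AP-1, was called: it had 253 and 247 units on MMP1-remodelled, 282 and 270 on MMP13-remodelled and 158 and 177 on native matrix. The groups did not overlap, which the choice of Junb by its small p favours. The log2 fold against native was 0.72 on MMP13-remodelled matrix (SE 0.18, limma adjusted p = 0.026) and 0.65 averaged over both (adjusted p = 0.013). On MMP1-remodelled matrix it was 0.58 and was not called (limma adjusted p = 0.17). The adjusted p on MMP13-remodelled matrix was 0.0151 by both edgeR and DESeq2, and averaged over both it was 0.0115 by edgeR and 0.0094 by DESeq2. When single libraries were left out, the adjusted p on MMP13-remodelled matrix lay between 0.047 and 0.67, and the call held only without native replicate 2. The call on MMP13-remodelled matrix was lost in 9 of 17 alternatives, and the averaged call in 7 of 16. Leaving out single libraries gave averaged log2 folds between 0.57 and 0.73. Among these fits the averaged call too held only without native replicate 2. It was also lost with TMM factors (adjusted p = 0.13) and without the trend (adjusted p = 0.71). No other gene of this list passed, and the median log2 fold of the 14 was 0.25 on MMP1-remodelled and 0.067 on MMP13-remodelled matrix. The next member, Cebpb, a leucine zipper factor, had 45.3 and 60.0 units on MMP1-remodelled, 80.9 and 67.2 on MMP13-remodelled and 37.7 and 44.5 on native matrix (log2 fold 0.83 on MMP13-remodelled matrix, limma adjusted p = 0.36). Mmp13 and Mmp3, whose windows hold the motif printed above, had lower mean values on both remodelled matrices than on native matrix, a difference that the test did not call for Mmp13 and that was not detectable for Mmp3.

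**Figure D5:**
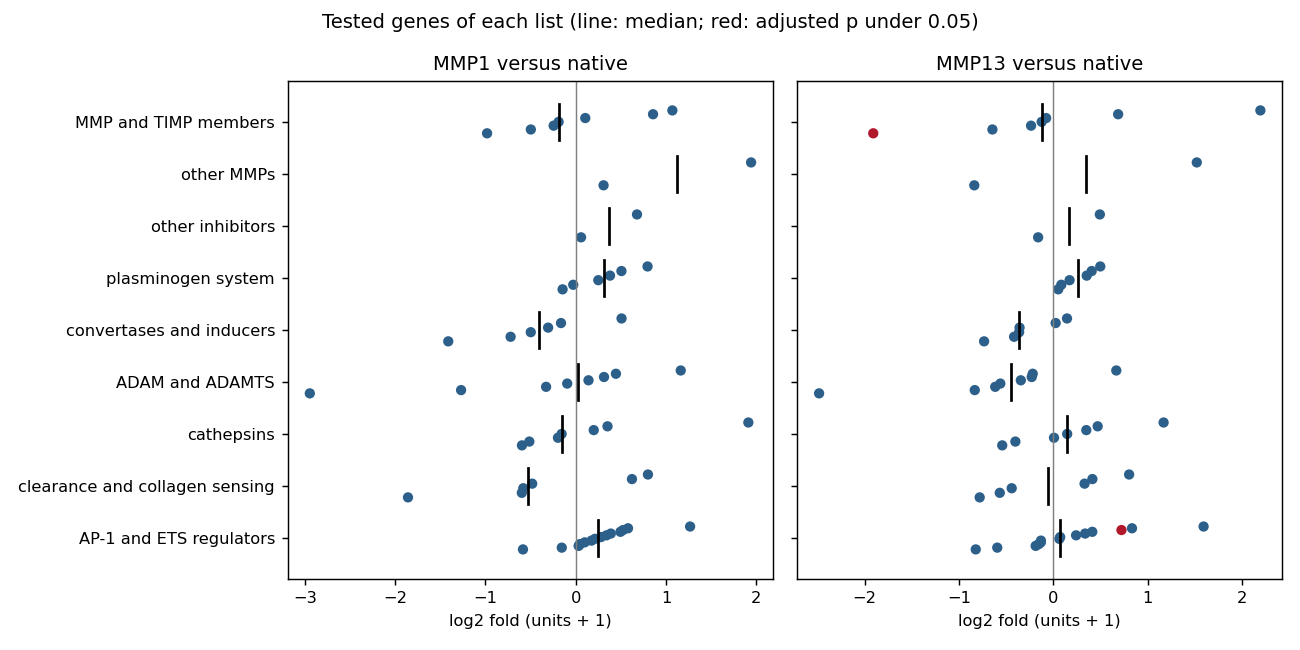
Log2 folds (horizontal axes, on the log2(units + 1) scale) of the tested genes of each list on MMP1-remodelled and on MMP13-remodelled against native matrix, with black lines for list medians and red points for an adjusted p under 0.05. The red points are Mmp9, at -1.91, and Junb, at 0.72, both on MMP13-remodelled matrix.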

How the data were processed

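One deposited table was used, with 1 column per library. The submitters' processing notes name bcl2fastq, TopHat, DESeq and the rat build rn5. The gene counter, its use of strand, the collapsing of molecular identifiers and tool versions remain not given in the sources used here. A normalized signal was deposited: reads per gene over a size factor of the library by the authors. The evidence is in the numbers, since 100% of values above 0 were whole multiples of 1 read's worth (tolerance 0.01 reads).

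Genes with at least 5 units in at least 2 libraries were tested, 7284 in all. The main test was limma 3.58.1 in R 4.3.3 on log2(units + 1), eBayes with trend, all 6 libraries and 1 coefficient per group, which left 3 residual degrees of freedom. The prior degrees of freedom were infinite. Alternatives were pseudocounts of 0.5 and 5, no filter and a stricter one, TMM and quantile scaling, no trend, only the groups compared, a replicate block, each library left out, and edgeR 4.0.16 (quasi-likelihood) and DESeq2 1.42.0 on recovered reads. EdgeR called 10, 32, 2 and 53 genes and DESeq2 called 1, 30, 1 and 42, for MMP1, MMP13, MMP1 against MMP13 and both averaged. The Mmp14 ratios were added after the data were seen. The planned ratios were all MMP over all TIMP members and Mmp13 over Timp1, so Mmp2 over Timp2 and Timp2 over Timp1 were additions too. Promoter sequences and gene neighbours came from RefSeq (GRCr8), whereas the notes name rn5 for the reads. The scripts were tested on simulated counts.

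Recovered reads per library numbered 184061 and 225105 (MMP1), 362122 and 161817 (MMP13) and 219775 and 347618 (native). Replicates differed by more than sampling noise (chi-square per degree of freedom 2.10, 2.29 and 2.54). A count of 0 allows up to 3 reads. The exact intervals cover counting error only, while those from limma take their width from the trend. The members and lists were chosen with earlier results of these data known. Beside the members, the text names every called list gene and the 2 genes of smallest p in each list. Mmp13, Mmp9, Mmp14, Mmp3, Timp1 and Junb were described in those earlier results.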

Additional observations from a re-analysis of the deposited data

How the results depend on the processing

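The single call of a member, Mmp9 on MMP13-remodelled against native matrix, fell to 0 calls with pseudocounts of 0.5 or 5, with no filter, with TMM factors from all genes, without the trend, with only the groups compared, by edgeR and by DESeq2, which gave Mmp9 no adjusted p and adjusted only 4 members there. Leaving out single libraries gave counts of 0 to 1, with the lone library left in a group assumed to vary like the others. The count stayed at 1 with the stricter filter (adjusted p = 0.022), with quantile scaling (0.0498) and with the replicate block (0.042). Replicate numbers were shared between groups, and deviations of equal numbers correlated at -0.045, 0.0059 and -0.072. Counting noise weakens such correlations, so they cannot show whether equal numbers shared a batch. The replicate block moved no other member across the threshold, with counts of 0, 1, 0 and 0. In MMP1 against MMP13 single libraries left out gave counts of 0 to 1, the 1 being Mmp9 without MMP13 replicate 1.

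The ratio of MMP to TIMP reads on MMP1-remodelled matrix was 0.416 without Mmp9, near 0.419 on MMP13-remodelled and 0.417 on native matrix. Under all alternatives 18 log2 folds of members changed sign, each of a fold that was not called. Leaving out single libraries, the log2 fold against native on MMP1-remodelled matrix ran from -0.94 to 0.45 for Mmp9 and from -0.086 to 0.30 for Timp1. On MMP13-remodelled matrix it ran from -0.49 to 0.013 for Mmp2, from -0.23 to 0.079 for Timp1 and from -0.36 to 0.11 for Timp2. In MMP1 against MMP13 it ran from -0.10 to 0.44 for Mmp14, from -0.0084 to 0.37 for Timp1, from -0.30 to 0.17 for Timp2 and from -2.21 to 0.52 for Timp3. With both matrices averaged Timp1 ran from -0.091 to 0.12, and was -0.031 with TMM factors and -0.011 with quantile scaling. Over all genes, 10 were called higher and 1 lower on MMP1-remodelled, 20 and 10 on MMP13-remodelled matrix, 0 and 3 in MMP1 against MMP13 and 38 and 9 with both averaged. Other settings with all libraries gave 0 to 11 and 0 to 3, 0 to 26 and 0 to 9, 0 and 0 to 3, and 0 to 38 and 0 to 19. Single libraries left out gave 3 to 15 and 0 to 4, 5 to 30 and 0 to 24, 0 to 23 and 1 to 4, and 5 to 31 and 0 to 8. TMM factors gave 3 and 0, 7 and 1, 0 and 3, and 12 and 4, and quantile scaling 11 and 3, 19 and 9, 0 and 2, and 28 and 14. The causes were not tested. The averaged comparison uses all groups, so it has no fit with only the groups compared.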

Other observations

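Nearness of profile was measured as the root mean square difference, over the 6 libraries, of log2(units + 1) centred on each gene's own mean, among the other tested genes with a mean of at least 20 units (2646, or 2647 for Timp3). Nearest to Mmp13 were Gdi2 (0.080), Maged1 (0.086) and Cav1 (0.092), where the spread of Mmp13 itself was 0.29. For Mmp14, with a spread of 0.44, they were Wdr83os (0.097), Rnh1 (0.12) and Etf1 (0.13), and for Mmp2 (0.52) Ccnb1 (0.099), Plekhb2 (0.13) and Mthfd1l (0.13). Mmp9, with a spread of 1.14, had no close neighbour, and its nearest were Ubl3 (0.51), Shc1 (0.55) and Chmp2a (0.55). For Timp1 (0.17) they were Emc8 (0.050), Ran (0.072) and Cox7c (0.074), and for Timp2 (0.21) Slc25a4 (0.067), Ppp2r1a (0.077) and Cct5 (0.080). For Timp3 (1.48, on 18 reads) they were Abcf1 (0.94), Pmm2 (0.98) and Pias4 (1.00). All points share the same 6 libraries and their depths, so that nearness over so few libraries is a description only.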
